A study of Homo sapiens with 3 samples.

Results

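The genes described here are the receptors EGFR, ERBB2 and ERBB3 and the feedback inhibitors ERRFI1 and LRIG1. They were picked by symbol, and all 5 were found, each on a single row, among 30866 symbols in the deposited expression table. All 5 belong to the 13425 genes that reached 1 FPKM (fragments per 1000000 mapped fragments and per kilobase of transcript) in at least 1 library and were compared. LRIG1 passed through the dual-resistant and vehicle libraries, since it lay under 1 FPKM in erlotinib-resistant cells. The table's header does not name the unit, which was taken from the tools listed by the submitters and from the values. FPKM is a level per transcript length, so levels of different genes may be set side by side.

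The 3 populations sequenced were of HCC827, an established human lung adenocarcinoma cell line that depends on a mutated, activated EGF receptor. All of them came from 1 polyclonal pool of cells marked with ClonTracer DNA barcodes. The dual-resistant population had been exposed to 2 µM erlotinib together with 0.2 µM crizotinib for 10 days, starting from the erlotinib-resistant population. The erlotinib-resistant population had been kept in 2 µM erlotinib, which blocks the kinase of the EGF receptor, for 47 days. The vehicle population had been kept in 0.1% DMSO for 4 days. Crizotinib inhibits the MET kinase. Each population is 1 library, so no difference below has an error estimate, a test or a p-value. The dual-resistant population descends from the erlotinib-resistant one, and drug, length of culture and selection differ together between populations, so their parts in a difference cannot be told apart.

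EGFR, ERBB2 and ERBB3 are receptor tyrosine kinases that signal as pairs. EGFR binds ligands such as EGF and amphiregulin, ERBB2 has no known ligand and serves as a partner, and ERBB3 binds neuregulins, has little kinase activity of its own and recruits PI3 kinase when a partner phosphorylates it. ERRFI1 (also called MIG6) is made after receptor activation and binds the kinase domain of EGFR and ERBB2, which blocks it. LRIG1 is a membrane protein that promotes the breakdown of ERBB receptors. In lung adenocarcinoma, EGFR is a frequent driver, and MET and ERBB3 are known as routes by which PI3 kinase signalling can be kept up while EGFR is inhibited.

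The 250 bases before the start of EGFR and of ERRFI1 are shown because the ratio of this receptor to its inhibitor is a main result below. The promoter table matched 4 of the 5 members. Sequences are those of RefSeq on build GRCh38.p14, which is not the build of the deposited table, and read 5′ to 3′ on the strand of the gene. They end at the base before the start. EGFR lies on the plus strand at chr7:55018767-55019016 and ERRFI1 on the minus strand at chr1:8026310-8026559. Capitals mark matches, on either strand, to any of 4 motifs searched for: GGGCGG (the GC box of SP1), CACCTG (an E-box of the ZEB and SNAI type), TGANTCA (AP-1) and GGAATG (TEAD).
EGFR: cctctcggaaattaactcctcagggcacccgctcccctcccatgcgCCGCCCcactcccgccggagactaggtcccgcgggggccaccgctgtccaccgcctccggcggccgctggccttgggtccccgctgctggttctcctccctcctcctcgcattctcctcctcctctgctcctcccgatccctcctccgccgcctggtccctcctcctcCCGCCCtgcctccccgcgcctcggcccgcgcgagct
ERRFI1: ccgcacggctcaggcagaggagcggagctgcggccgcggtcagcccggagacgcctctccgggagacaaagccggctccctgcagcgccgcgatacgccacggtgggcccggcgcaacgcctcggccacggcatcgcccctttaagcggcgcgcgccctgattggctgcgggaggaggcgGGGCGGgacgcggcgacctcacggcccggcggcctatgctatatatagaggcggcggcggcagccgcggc
All capitals in these windows belong to GC boxes, of which EGFR had 2 and ERRFI1 had 1. The GC box occurred in 42.6% of 35116 promoter windows of the same length. The other motifs were each without a match in either window, and they occurred in 17.5% (CACCTG), 6.57% (TGANTCA) and 11.9% (GGAATG) of all windows. G and C made up 73.6% of the EGFR window and 75.2% of the ERRFI1 window, against a median of 58% over all windows. Among the other members, the ERBB2 window held 1 AP-1 match and no GC box, and the LRIG1 window held 3 GC boxes. These matches describe letters and were not tied to binding in these cells.

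In every library the members stood in the same order of level, with EGFR highest, then ERRFI1, ERBB2, ERBB3 and LRIG1. EGFR was higher by more than 4-fold in both resistant libraries than in vehicle. ERBB3 was lower in dual-resistant cells than in either other library. ERRFI1 was highest in erlotinib-resistant cells and lowest in dual-resistant cells. ERBB2 differed little between the libraries, and LRIG1 was low in all of them.

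**Figure D1:**
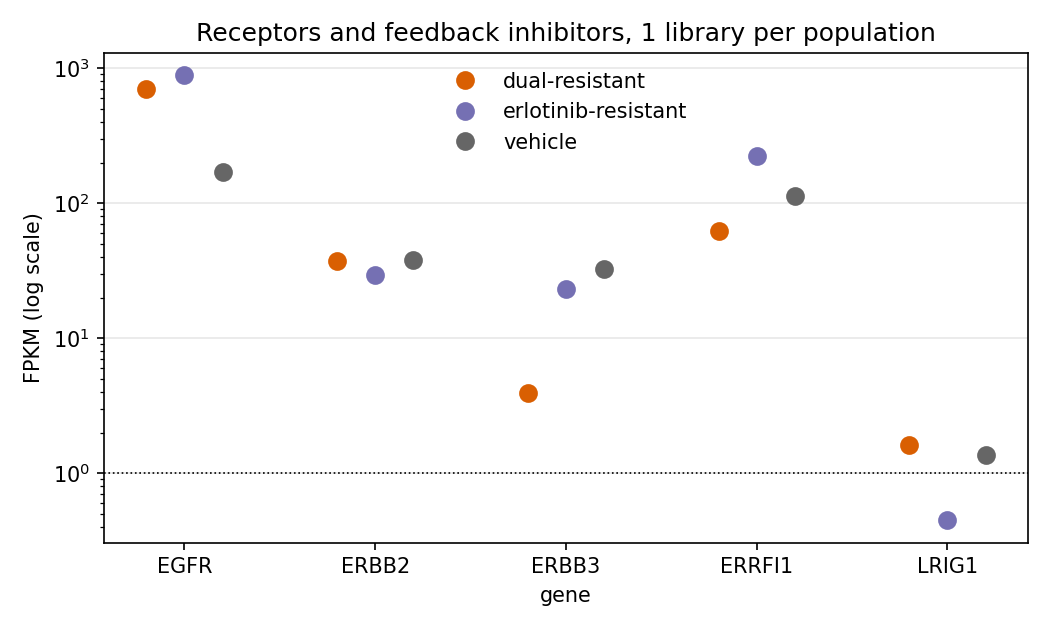
FPKM (log axis) of the 5 genes, with 1 point per library for the dual-resistant, erlotinib-resistant and vehicle populations; the dotted line is 1 FPKM. EGFR stands at 698 and 885 FPKM in the dual-resistant and erlotinib-resistant libraries and at 171 FPKM in vehicle, and ERBB3 is at 3.94 FPKM in dual-resistant cells.

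EGFR (Entrez ID 1956, chromosome 7, 55086725 to 55275031, in GRCh37 coordinates as for all positions in the table) reached 698 FPKM in dual-resistant cells, 885 FPKM in erlotinib-resistant cells and 171 FPKM in vehicle cells. Both resistant libraries were thus high and the vehicle one low. By level, EGFR ranked 100 of 13401 genes in dual-resistant cells, 91 of 13404 in erlotinib-resistant cells and 465 of 13399 in vehicle cells. The values do not separate the mutated from the normal allele.

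ERBB2 (Entrez ID 2064, chromosome 17, 37844393 to 37884915) stood at 37.1 FPKM in dual-resistant cells, 29.5 FPKM in erlotinib-resistant cells and 37.8 FPKM in vehicle cells. The erlotinib-resistant library was the lowest by a small margin. ERBB3 (Entrez ID 2065, chromosome 12, 56473809 to 56497291) stood at 3.94 FPKM in dual-resistant cells, 23.3 FPKM in erlotinib-resistant cells and 32.8 FPKM in vehicle cells. The dual-resistant library stood well below both others. In rank, ERBB3 was gene 9855 of 13401 by level in dual-resistant cells, against 3732 of 13404 in erlotinib-resistant cells and 2803 of 13399 in vehicle cells. ERBB4, the remaining receptor of the family, was at 0.0315, 0.0137 and 0.0352 FPKM in the dual-resistant, erlotinib-resistant and vehicle libraries and was not compared.

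ERRFI1 (Entrez ID 54206, chromosome 1, 8071779 to 8086393) stood at 62.1 FPKM in dual-resistant cells, 222 FPKM in erlotinib-resistant cells and 112 FPKM in vehicle cells. The erlotinib-resistant library was the highest and the dual-resistant one the lowest. LRIG1 (Entrez ID 26018, chromosome 3, 66429221 to 66550845) stood at 1.62 FPKM in dual-resistant cells, 0.448 FPKM in erlotinib-resistant cells and 1.38 FPKM in vehicle cells. It was lowest in erlotinib-resistant cells, and between 86.9% and 94.5% of the way down the genes ranked by level.

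The table holds no counts. From the smallest values of single-exon genes, the worth of 1 FPKM over 1 kb of transcript was put at about 43.1 fragments in dual-resistant cells, 47.4 in erlotinib-resistant cells and 68.6 in vehicle cells. With the longest transcript length of an annotation on another build, LRIG1 rested on about 368, 112 and 499 fragments in these libraries and ERBB3 on about 1004, 6527 and 13314. ERBB4 rested on about 16, 8 and 29 fragments, too few to compare its levels. These are estimates of counting depth and say nothing of the spread between cultures.

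The cell type was checked against markers. Of the epithelial markers EPCAM, CDH1, KRT7, KRT8, KRT18, KRT19 and NKX2-1, all 7 were detected in each library. NKX2-1, the lung lineage factor and the only one of them particular to lung here, stood at 28.4, 40.0 and 55.99 FPKM in the dual-resistant, erlotinib-resistant and vehicle libraries. The 7 markers summed to 2320 FPKM in dual-resistant cells, 5240 FPKM in erlotinib-resistant cells and 5088 FPKM in vehicle cells. The 7 fibroblast markers summed to 8.25, 2.56 and 3.90 FPKM, with PDGFRA at 0 throughout, and the 4 endothelial markers to 0.248, 0.227 and 1.38 FPKM. Of the 3 fibroblast markers that reached 1 FPKM in some library, 2 were called higher in dual-resistant cells than in either other library. They reached 1 FPKM in dual-resistant cells alone, so the filter fixed their direction. PDGFRB stood at 1.01 FPKM in dual-resistant cells and was listed at 0 in both other libraries, and LUM stood at 1.52 FPKM against 0.0725 FPKM in erlotinib-resistant cells and 0.0291 FPKM in vehicle. The 5 immune markers summed to 67.4, 117 and 49.6 FPKM. Of these, CD3E was at 0 and PTPRC at no more than 0.137 FPKM, while CD68, a lysosomal protein found outside the immune system too, stood at 66.5, 115 and 45.5 FPKM and was called higher in erlotinib-resistant cells against vehicle. CD14, a monocyte marker, stood at 0.612 FPKM in dual-resistant cells, 0.597 FPKM in erlotinib-resistant cells and 4.10 FPKM in vehicle. It was called lower in both resistant libraries against vehicle. Vehicle was the sole library in which CD14 passed the filter of 1 FPKM, and a call against it could only be lower. The part of these other cell types' markers in the members' differences was not tested.

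Over all genes, a difference was called at a log2 difference of 1 or more of FPKM + 1 values, by size alone. The FPKM sums ranged from 494817 in dual-resistant cells to 596084 in vehicle cells. Scaling the libraries to the same sum moved the median difference of all genes by 0.14 for erlotinib-resistant against vehicle, by 0.07 for dual-resistant against erlotinib-resistant and by 0.23 for dual-resistant against vehicle. As deposited, these medians were 0.00, -0.03 and -0.01, so the differences given below for the members may be read as relative to the typical gene. Higher genes made up 38.7% of the calls for erlotinib-resistant against vehicle as deposited and 53.7% with equal sums, and 51.3% and 66.0% for dual-resistant against vehicle. The 3 comparisons share libraries pairwise, so they are not independent of each other.

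The first comparison asked how erlotinib-resistant cells differed from vehicle-treated cells at the drug's own target and its relatives. EGFR was 5.14-fold higher in erlotinib-resistant cells than in vehicle (log2 difference 2.36), while ERBB2 and ERBB3 differed by -0.35 and -0.48. Of the 5 members, 1 was called higher and none lower, in a comparison in which 9.84% of 13381 genes were called, 3.81% as higher and 6.03% as lower. Only 45 genes had a more positive difference than EGFR. ERRFI1 stood at a log2 difference of 0.98 (222 FPKM against 112), just inside the limit, and 537 genes lay above it. With equal sums it was 1.15, past the limit. LRIG1 differed by -0.71 on the FPKM + 1 scale, which compresses low values, and its deposited value was 3.07-fold lower in erlotinib-resistant cells.

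The second comparison addressed the step from erlotinib resistance to resistance against both drugs. ERBB3 was 4.92-fold lower in dual-resistant cells than in erlotinib-resistant cells (log2 difference -2.30), and ERRFI1 was 3.53-fold lower (-1.82). Of the 5 members, 2 were called lower and none higher, where 17.4% of 13385 genes were called, 10.1% as higher and 7.22% as lower. Of all compared genes, 1.33% had a more negative difference than ERBB3 and 2.27% than ERRFI1. EGFR differed by -0.34 and ERBB2 by 0.32, close to the bulk of genes. LRIG1 differed by 0.85, and its deposited value was 3.61-fold higher in dual-resistant cells.

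The third comparison set dual-resistant cells against vehicle. EGFR was 4.06-fold higher (log2 difference 2.02) and ERBB3 6.85-fold lower (-2.78) in dual-resistant cells. Of the 5 members, 1 was called higher and 1 lower, where 21.4% of 13378 genes were called, 11.0% as higher and 10.4% as lower. For EGFR 410 genes had a more positive difference, and for ERBB3 217 genes had a more negative one. ERRFI1 differed by -0.84 and LRIG1 by 0.14, both within the limit. ERBB2 differed by -0.03 as deposited, by 0.23 with equal sums and by 0.01 with libraries scaled by the median ratio, so its sign turned with the scaling.

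**Figure D2:**
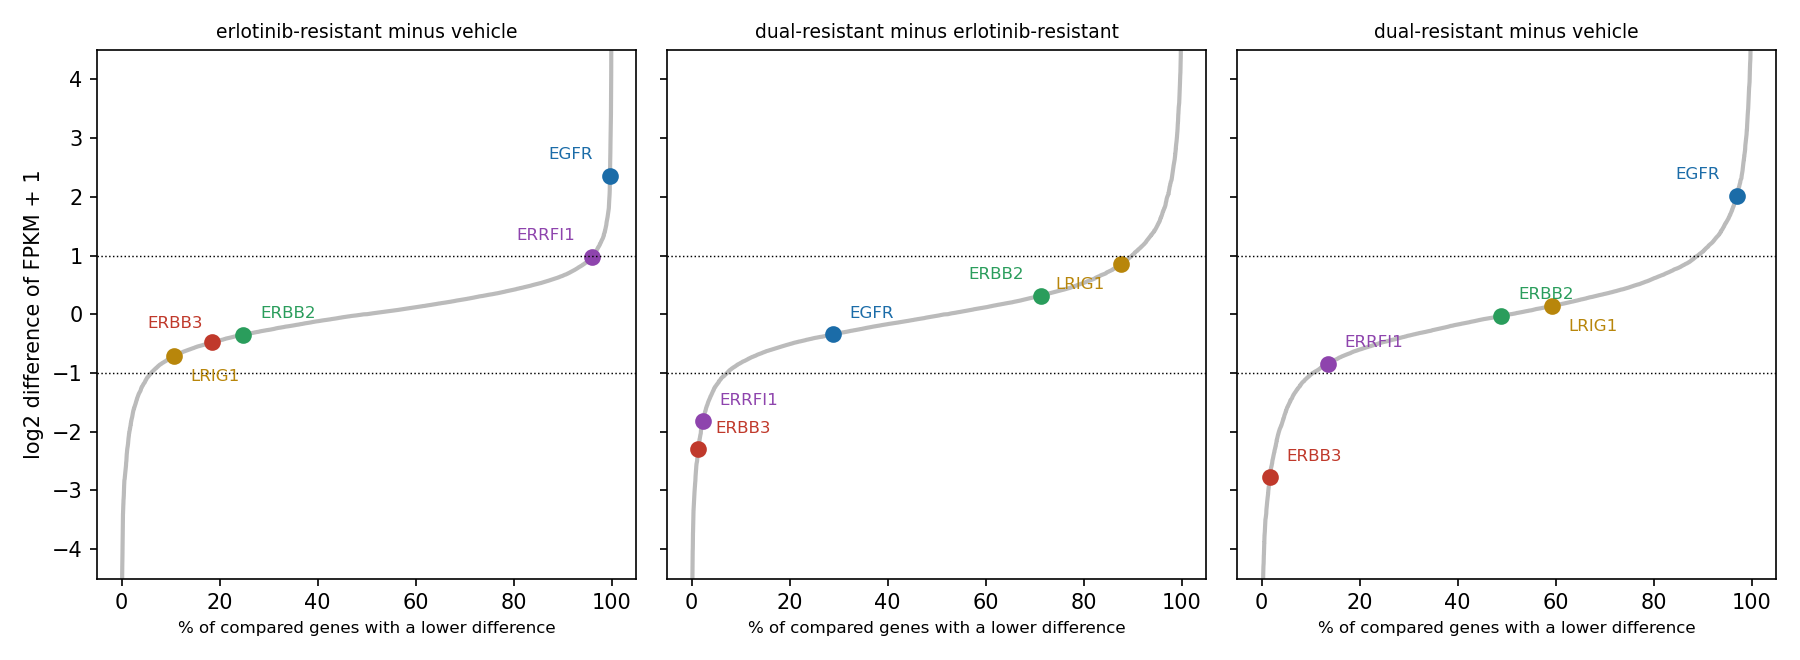
Log2 difference of FPKM + 1 (vertical axis, clipped) for all compared genes in order of size (grey line; horizontal axis, percentage of genes with a lower difference), 1 panel per comparison, with the 5 genes as points and dotted lines at the limit of 1. EGFR lies near the top of the first panel at 2.36, ERBB3 and ERRFI1 near the bottom of the second at -2.30 and -1.82, and ERBB2 in the flat middle stretch of each.

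Ratios between members within a library do not depend on how the libraries are scaled. EGFR made up 94.4% of the summed FPKM of EGFR, ERBB2 and ERBB3 in dual-resistant cells, 94.4% in erlotinib-resistant cells and 70.8% in vehicle cells. ERBB2 made up 5.02%, 3.15% and 15.6% of that sum in the dual-resistant, erlotinib-resistant and vehicle libraries, and ERBB3 0.533%, 2.48% and 13.6%. Both resistant libraries thus had nearly the same EGFR fraction and differed in what made up the remainder. ERBB2 exceeded ERBB3 by 9.42-fold in dual-resistant cells, by 1.27-fold in erlotinib-resistant cells and by 1.15-fold in vehicle cells. The summed FPKM of the 3 receptors was 739 in dual-resistant cells, 938 in erlotinib-resistant cells and 242 in vehicle cells.

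The inhibitors did not keep step with EGFR. ERRFI1 stood at 8.89% of the EGFR level in dual-resistant cells, 25.1% in erlotinib-resistant cells and 65.5% in vehicle cells. Relative to EGFR it was 2.61-fold lower in erlotinib-resistant cells than in vehicle, although its own FPKM was higher there. In dual-resistant cells the ratio was a further 2.82-fold lower than in erlotinib-resistant cells, with EGFR itself little different. EGFR exceeded LRIG1 by 432-fold in dual-resistant cells, 1975-fold in erlotinib-resistant cells and 125-fold in vehicle cells. ERRFI1 and LRIG1 thus followed different orders over the populations; the erlotinib-resistant library had the most ERRFI1 and the least LRIG1.

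**Figure D3:**
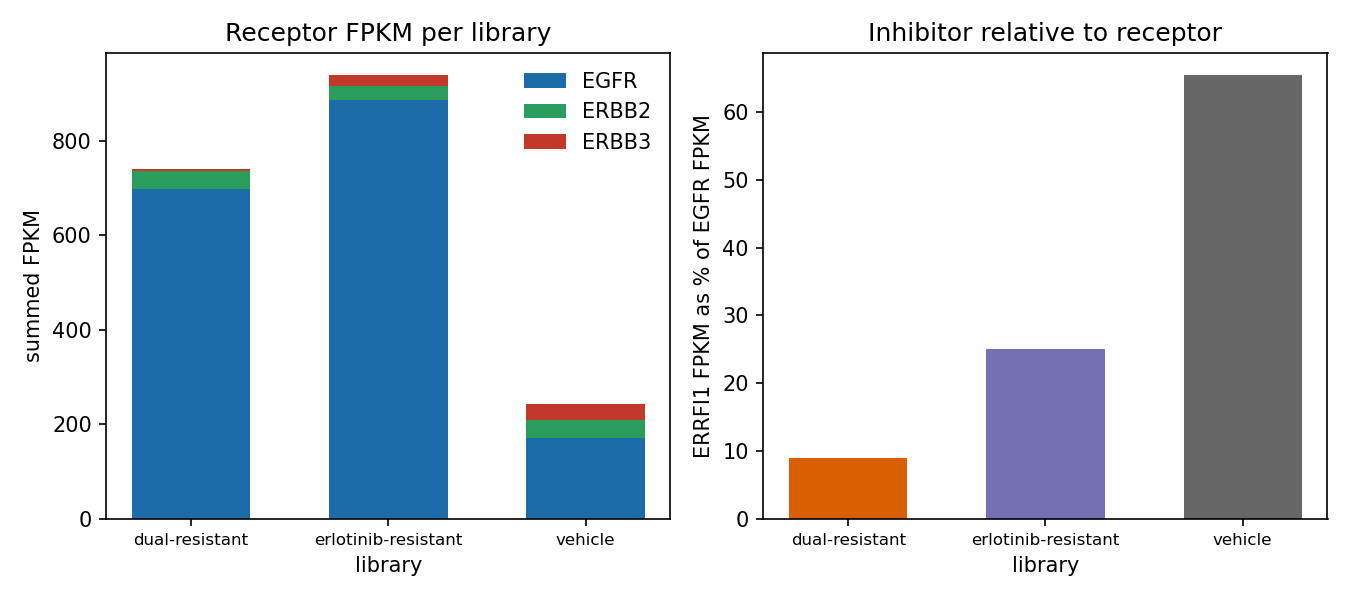
Left, FPKM of EGFR, ERBB2 and ERBB3 stacked for the dual-resistant, erlotinib-resistant and vehicle libraries; right, ERRFI1 FPKM as a percentage of EGFR FPKM in the same libraries. The 3 receptors sum to 739, 938 and 242 FPKM, and the ERRFI1 percentage is 8.89%, 25.1% and 65.5%.

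MET, the kinase that crizotinib inhibits, gives a point of reference for EGFR. It stood at 96.2 FPKM in dual-resistant cells, 763 FPKM in erlotinib-resistant cells and 98.9 FPKM in vehicle cells. EGFR exceeded MET by 7.25-fold in dual-resistant cells, 1.16-fold in erlotinib-resistant cells and 1.73-fold in vehicle cells. The dual-resistant library thus held the high EGFR level without the high MET level.

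Some epithelial markers were lower alongside ERBB3 and ERRFI1. In dual-resistant cells against erlotinib-resistant cells, 4 of the 7 epithelial markers were called lower and none higher, with a median log2 difference of -1.22 against -0.03 over all genes, of which 7.22% were called lower. KRT8, NKX2-1 and KRT19 lay within the limit, at -0.08, -0.48 and -0.74. EPCAM, an adhesion molecule, stood at 41.1 FPKM in dual-resistant cells against 345 FPKM in erlotinib-resistant cells, and CDH1, which encodes E-cadherin, at 22.8 against 194 FPKM. The fibroblast markers PDGFRB and LUM were called higher in dual-resistant cells, at the levels given above, but the filter fixed their direction. COL1A1, the other fibroblast marker compared, was not called. It stood at 5.38, 2.48 and 3.84 FPKM in the dual-resistant, erlotinib-resistant and vehicle libraries. In erlotinib-resistant cells against vehicle, none of the 7 epithelial markers was called, where 9.84% of all genes were called. The lack of a call among 7 genes is thus no result about the markers. The part of these marker differences in the ERBB3 and ERRFI1 differences was not tested. In bulk libraries, fewer cells with a transcript and less of it per cell cannot be told apart.

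Genes whose levels over the 3 libraries ran most like a member's were named by the distance between their log2 values of FPKM + 1, each centred on its own mean, among 10053 genes with at least 5 FPKM in 1 library and no value at 0. With 3 libraries this likeness is a description only. For ERBB3 the nearest were SPDEF, a transcription factor of secretory epithelium, MDFI, LTB4R, a leukotriene receptor, COL17A1, a hemidesmosome collagen, and the ubiquitin ligase TRIM31, at distances from 0.03 to 0.14. SPDEF stood at 0.202 FPKM in dual-resistant cells, 5.06 FPKM in erlotinib-resistant cells and 7.33 FPKM in vehicle, where ERBB3 stood at 3.94, 23.3 and 32.8 FPKM. Adding 1 FPKM compresses low values, so genes whose deposited values differ by unlike folds, as these do, can come out as near. For ERRFI1 the nearest were CSF2, which encodes the cytokine GM-CSF, TMCC3, the syntaxin gene STX1A, the trypsinogen gene PRSS3 and TBC1D30, at distances from 0.07 to 0.15. CSF2 stood at 3.27, 13.6 and 6.90 FPKM in the dual-resistant, erlotinib-resistant and vehicle libraries. EGFR had no gene as close. Its nearest were the mitotic genes TOP2A and CDC20, CAV2 of the caveolae, the adhesion protein gene VCL and TROVE2, at distances from 0.21 to 0.42. TOP2A stood at 73.5, 88.2 and 14.1 FPKM in the same order of libraries.

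The 5 compared genes on either side of each member, in the table's own gene order, were set beside it. None of the 10 neighbours of EGFR was called higher in erlotinib-resistant cells against vehicle, and the median of their log2 differences was 0.04. Over all genes 3.81% were called higher there, so the lack of a call among 10 genes is no result about the neighbours. SEC61G, the nearest gene before EGFR, which encodes a subunit of the protein translocation channel, stood at 4872 FPKM in dual-resistant cells, 5756 FPKM in erlotinib-resistant cells and 5596 FPKM in vehicle. It ranked first of all compared genes in the resistant libraries and 4 in vehicle. The nearest row after EGFR, uc022adp, begins 2.09 kb past the end of EGFR and is listed without a gene ID. Whether its reads come from EGFR transcripts that run past the annotated end or from a separate transcript was not tested. It stood at 767 FPKM in dual-resistant cells, 658 FPKM in erlotinib-resistant cells and 334 FPKM in vehicle. Its log2 difference was 0.97 for erlotinib-resistant against vehicle and 1.19 for dual-resistant against vehicle. VOPP1, further along, stood at 625 FPKM in dual-resistant cells against 309 FPKM in erlotinib-resistant cells and 272 FPKM in vehicle. FKBP9L, whose reads may be shared with the similar gene FKBP9, was called lower in both resistant libraries against vehicle. It stood at 0.397 FPKM in dual-resistant cells and 0.137 FPKM in erlotinib-resistant cells against 3.38 FPKM in vehicle. Only in vehicle did it reach 1 FPKM, so the filter fixed its direction.

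Around ERBB3, none of the 10 neighbours was called in dual-resistant cells against erlotinib-resistant cells, where 17.4% of all genes were called. The nearest gene after ERBB3, PA2G4, which encodes an ERBB3-binding protein, stood at 78.9 FPKM against 150 FPKM, a log2 difference of -0.92, and RPL41, a ribosomal protein gene, beyond it at 338 against 669 FPKM (-0.98). Against vehicle, where 21.4% of all genes were called, 1 neighbour of ERBB3 was called, ESYT1, which encodes a membrane tethering protein. It was higher, at 53.0 FPKM in dual-resistant cells against 19.3 FPKM in vehicle. Of the 10 neighbours of ERRFI1, 1 was called in dual-resistant cells against erlotinib-resistant cells, TNFRSF9, a receptor of the TNF family, and it went the other way, at 9.84 FPKM against 1.75 FPKM. Beside ERBB2, GRB7, an adaptor that binds ERBB receptors, stood at 8.25 FPKM in dual-resistant cells against 51.3 FPKM in erlotinib-resistant cells (log2 difference -2.50) and 35.3 FPKM in vehicle. ERBB2, 49.8 kb away by gene start, did not share this difference. ORMDL3, 4 places after ERBB2, stood at 61.9 FPKM in dual-resistant cells against 22.2 FPKM in erlotinib-resistant cells and 28.1 FPKM in vehicle. Against vehicle, 3 of the 10 neighbours of ERBB2 were called higher in dual-resistant cells and 1, GRB7, lower. Those higher were ORMDL3, the Mediator subunit gene MED1 and the kinase gene CDK12, at log2 differences of 1.11, 1.40 and 1.72. Of all genes, 11.0% were called higher and 10.4% lower in that comparison. Among the neighbours of LRIG1, ADAMTS9 was called higher in dual-resistant cells, at 3.94 FPKM against 0.978 FPKM in erlotinib-resistant cells and 0.319 FPKM in vehicle. It reached 1 FPKM in dual-resistant cells alone, so the filter fixed its direction. Against vehicle, uc003dnb and C3orf64 near LRIG1 were also called higher in dual-resistant cells, at log2 differences of 1.06 and 1.02.

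**Figure D4:**
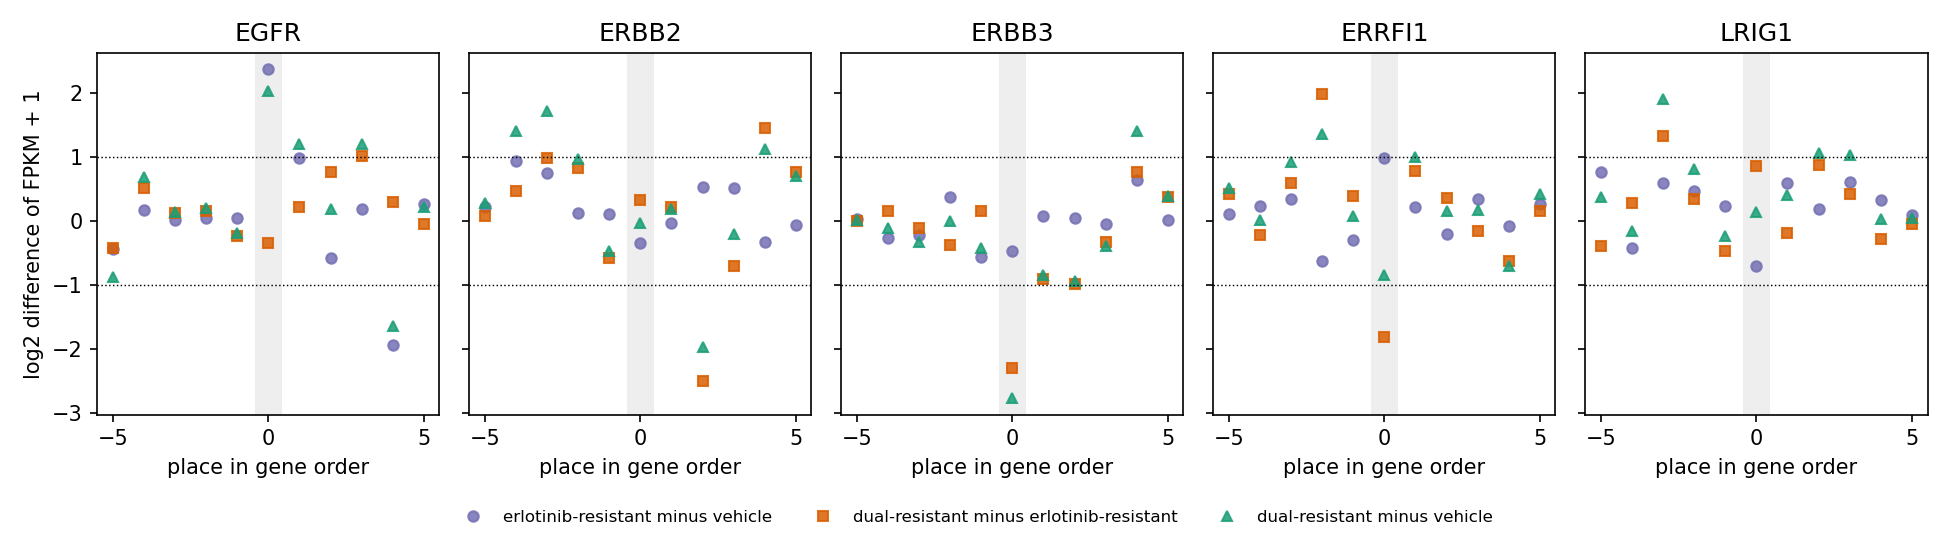
Log2 difference of FPKM + 1 for each gene (place 0, grey band) and the 5 compared genes on either side in the table's order, with 1 symbol per comparison and dotted lines at the limit of 1. EGFR, ERBB3 and ERRFI1 stand outside most of their neighbours in the comparisons in which they differ, and GRB7 at -2.50 stands 2 places after ERBB2.

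Of the other receptor-level inhibitors, a list of 15 genes, 3 were called higher and none lower in erlotinib-resistant cells against vehicle, with a median log2 difference of 0.31 against 0.00 over all genes. Over all genes 3.81% were called higher and 6.03% lower there. The 3 inhibitors were CBL, the ubiquitin ligase of activated EGFR, at 7.75 FPKM against 3.16 FPKM, the receptor phosphatase PTPRJ at 12.4 against 4.38 FPKM, and SH3KBP1, an adaptor of CBL in receptor uptake, at 30.8 against 13.6 FPKM. With equal sums CBLC was called higher as well. In dual-resistant cells against erlotinib-resistant cells, 2 of 14 were called higher and 2 lower, with a median of 0.03, where 10.1% of all genes were called higher and 7.22% lower. CBLC, an epithelial member of the CBL family, stood at 2.96 FPKM against 36.6 FPKM (log2 difference -3.24) and SH3KBP1 at 9.28 against 30.8 FPKM, while the phosphatase PTPN1 stood at 49.1 against 19.9 FPKM and UBASH3B, which binds CBL, at 15.8 against 6.83 FPKM. RNF41, a ubiquitin ligase for ERBB3, has a missing value in dual-resistant cells and was left out there. In dual-resistant cells against vehicle, 4 of 14 were called higher (CBL, UBASH3B, PTPN1 and PTPRJ) and 1 lower (CBLC), with a median of 0.27, where 11.0% of all genes were called higher and 10.4% lower. PTPRJ stood at 22.6 FPKM in dual-resistant cells against 4.38 FPKM in vehicle, and CBLC at 2.96 against 19.2 FPKM. LRIG2 and LRIG3, the relatives of LRIG1, were not called in any comparison. LRIG3 stood at 7.96 FPKM in dual-resistant cells, 6.64 FPKM in erlotinib-resistant cells and 5.94 FPKM in vehicle, above LRIG1 in each.

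As deposited, none of 13 receptor endocytosis and sorting genes was called in any comparison. Of all genes, 9.84% were called in erlotinib-resistant cells against vehicle, 17.4% in dual-resistant against erlotinib-resistant cells and 21.4% in dual-resistant cells against vehicle. With so few genes, the lack of a call is no result about the list. With equal sums AP2A1 and CLTC were called higher in dual-resistant cells against vehicle, where 2047 of 13378 genes were called higher. Of 24 adaptors and direct effectors, 1 was called higher and 2 lower in erlotinib-resistant cells against vehicle, with a median of 0.16, where 9.84% of all genes were called. PTPN11, the phosphatase SHP2, stood at 59.2 FPKM in erlotinib-resistant cells against 26.0 FPKM in vehicle, and PIK3R3, a regulatory subunit of PI3 kinase, at 10.7 against 26.4 FPKM. PLCG1 was listed at 0 in erlotinib-resistant cells, which can be a failed estimate, and stood at 26.8 FPKM in dual-resistant cells and 5.89 FPKM in vehicle. In dual-resistant cells against erlotinib-resistant cells, 2 of 24 were called higher, PLCG1 and STAT5A, and 2 lower, GRB7 and RASA1, with a median of -0.12, where 17.4% of all genes were called. STAT5A, a transcription factor activated by receptor kinases, stood at 5.58 FPKM in dual-resistant cells against 1.64 FPKM in erlotinib-resistant cells. RASA1, a GTPase activator of RAS, stood at 13.3 FPKM against 29.1 FPKM, and with equal sums it was not called. In dual-resistant cells against vehicle, 2 were called higher, PLCG1 and STAT5A, and 2 lower, GRB7 and PIK3R3, with a median of 0.13, where 21.4% of all genes were called. With equal sums 4 were called higher, with PTPN11 (49.9 FPKM in dual-resistant cells against 26.0 FPKM in vehicle) and the adaptor CRK (58.8 against 31.2 FPKM) added. The share of adaptors called as deposited was near that of all genes or below it, so these counts are no result about the list. No gene called in these lists changed its sign under either scaling. That outcome was fixed in advance, since the scalings moved the median difference by 0.23 at most and a call needs 1 or more.

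The ligands of these receptors also differed between the libraries. Of 11 in the table, 6 reached 1 FPKM in some library, of which 3 were called higher in erlotinib-resistant cells against vehicle, and 1 higher and 3 lower in dual-resistant cells against erlotinib-resistant cells. Of all genes, 3.81% were called higher in the first of these comparisons, and 10.1% higher and 7.22% lower in the second. In the second, NRG1 lay just inside the limit at 0.98 as deposited and was called higher under both other scalings, which makes 2 higher. NRG1, a ligand of ERBB3, stood at 18.95 FPKM in dual-resistant cells, 9.10 FPKM in erlotinib-resistant cells and 1.63 FPKM in vehicle, so the library with the least ERBB3 had the most of its ligand. EREG, which encodes epiregulin, stood at 56.6 FPKM in dual-resistant cells, 144 FPKM in erlotinib-resistant cells and 56.8 FPKM in vehicle. HBEGF, a ligand of EGFR, stood at 30.2, 1.35 and 1.80 FPKM in that order of libraries. In dual-resistant cells against vehicle, 2 of 6 ligands were called higher and 1, AREG, lower, at 1.11 FPKM against 6.99 FPKM, where reads of a near-identical copy may have been shared. Of all genes, 11.0% were called higher and 10.4% lower there.

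The differences of the members were recomputed under 8 alternative settings. EGFR was called higher against vehicle in both resistant libraries under all of them, with log2 differences from 2.34 to 2.53 in erlotinib-resistant cells and from 1.995 to 2.29 in dual-resistant cells. ERBB3 stayed past the limit in dual-resistant cells in both comparisons, from -2.53 to -1.66 against erlotinib-resistant cells and from -3.03 to -2.08 against vehicle. ERRFI1 in dual-resistant cells against erlotinib-resistant cells ranged from -1.84 to -1.73. ERBB2 was not called in any comparison under any of them.

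**Figure D5:**
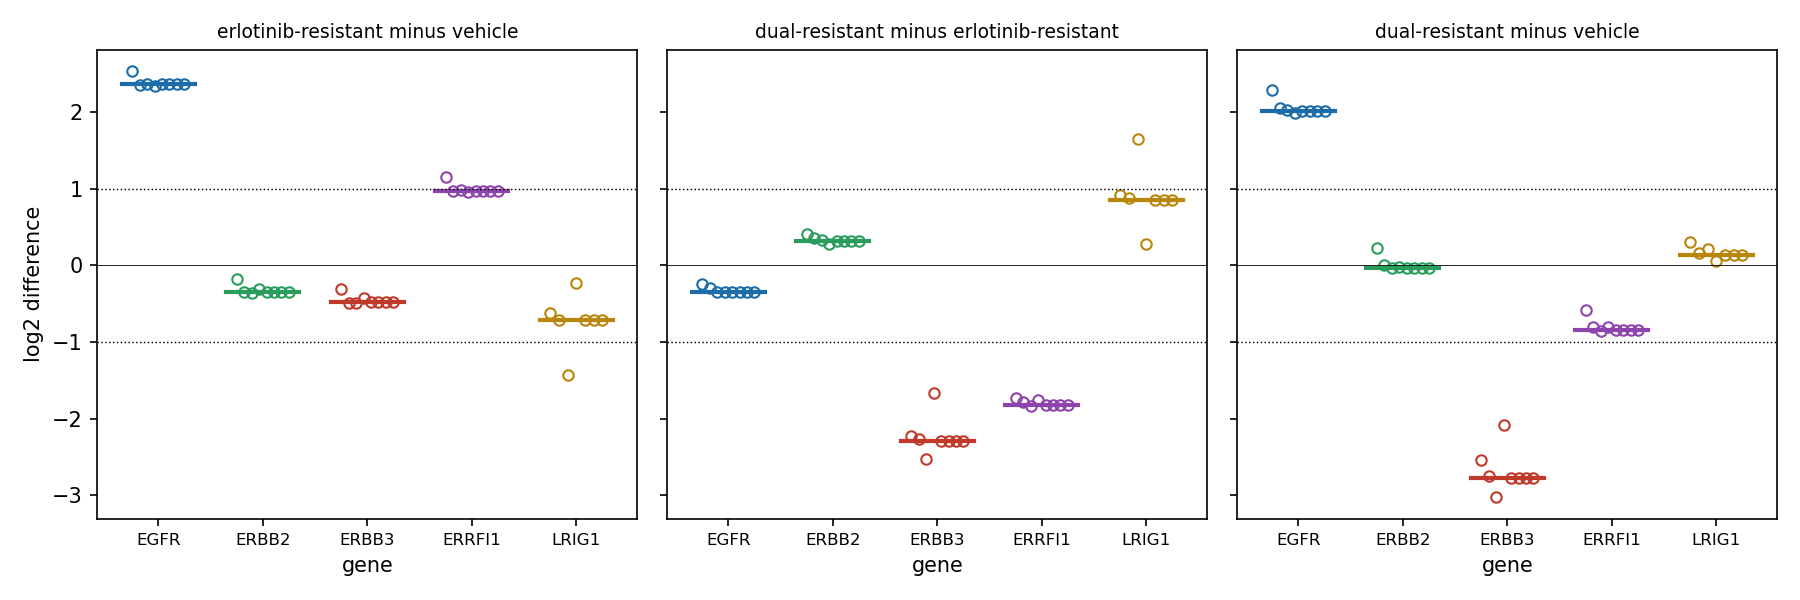
Log2 difference of each gene as reported (bar) and under each alternative setting (open circles), 1 panel per comparison, with dotted lines at the limit of 1. LRIG1, the gene with the lowest level, spreads the most, from -1.43 to -0.23 for erlotinib-resistant cells against vehicle, and EGFR stays at or above 1.995 against vehicle.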

How the data were processed

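RNA sequencing values of 3 populations, with 1 library each, were used as deposited by the authors. The unit was taken to be FPKM from the naming of Cufflinks and from the values, since the deposited table's header does not give it. Per the submitters' processing notes, the tools were TopHat 1.3 and Cufflinks 1.3, on build GRCh37. Which gene set, settings and strandedness were used is not given in the sources used here. Table starts were taken to count from 0, and coordinates are given from 1. Rows sharing a symbol were summed, genes with a missing cell were left out of that comparison, and log2(FPKM + 1) was subtracted between libraries (Python 3.11.15, pandas 2.3.3, numpy 2.4.6, figures with matplotlib 3.10.9). Genes of at least 1 FPKM in 1 library were compared; a log2 difference of 1 or more was called, by size and with no test. The calling steps were tested on simulated data, with differences past the limit put into genes set above low levels. This checks the code alone and bears on neither low levels nor the spread between cultures.

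The alternatives were equal FPKM sums, median-ratio scaling, pseudocounts of 0.1 and 5 FPKM, no filter, a filter of 5 FPKM, the highest row of each symbol, and genes at 0 left out. Named genes were the members, MET, up to 4 called genes per list with the largest differences, the 5 genes most like each member whose log2 values spanned 1 or more, and called genes among the 5 on either side. SEC61G, PA2G4, RPL41, LRIG2, LRIG3, NKX2-1, KRT8, KRT19, PTPRC, CD3E and RNF41 were named after their values were seen. So were ERBB4, PDGFRA, COL1A1 and the genes called under a scaling alone. Fragments per FPKM were estimated from percentile 1 of single-exon coding genes of 1 to 5 kb, matched by symbol to GENCODE, which is on another build. Members and lists were chosen with earlier results of these data known.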

Additional observations from a re-analysis of the deposited data

How the results depend on the processing

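No paired analysis was possible because each population has 1 library, and for the same reason no replicate could be left out. Of 117 recomputed member differences, 112 kept their side of the limit and moved by less than 1.5-fold, and none that was called changed its sign. Changing the filter, taking the highest row or leaving out genes at 0 could not alter a member's value, since each has a single row and no 0. Those differences stayed the same by construction, so only the scalings and pseudocounts bear on the members. A pseudocount keeps the sign of a difference, and the scalings shifted differences too little to turn a called one. With equal FPKM sums, ERRFI1 came to 1.15 in erlotinib-resistant cells against vehicle, so that 2 members were called. With a pseudocount of 0.1 FPKM, LRIG1 came to -1.43 in that comparison, so that 2 members were again called, and to 1.65 in dual-resistant cells against erlotinib-resistant cells. With a pseudocount of 5 FPKM, ERBB3 came to -1.66 in dual-resistant cells against erlotinib-resistant cells and to -2.08 against vehicle, as a larger pseudocount shrinks low values. The filter of 5 FPKM gave no value for LRIG1. Over all genes, erlotinib-resistant cells against vehicle gave 2031 calls with a pseudocount of 0.1 FPKM and 522 with 5 FPKM, against 1317 as reported. With 5 FPKM, dual-resistant cells gave 1049 calls against erlotinib-resistant cells (2324 as reported) and 1433 against vehicle (2867 as reported). Depth limits LRIG1 and ERBB4 the most, and the spread between cultures is unknown for every gene.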
